A study of Arabidopsis thaliana with 12 samples.

Results

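Uninduced roots of 2 Arabidopsis lines were compared, one able to overexpress the transcription factor Dof2.2 and the other PEAR2, both before any induction. The comparison holds 4 of the 12 arrays of the series, chosen by their labels: 2 of the line ER8Dof2.2/SUC2p::GFP-GUS and 2 of the line ER8PEAR2/SUC2p::GFP-GUS, all from mock plates. Each array measured entire roots of seedlings aged 68 h that then spent 16 h on plates without estriol, and the titles call the 2 arrays of a group biological replicates. The other groups used here are the same lines after 16 h on 10 µM estriol, an estrogen, with 2 arrays each, and the Dof1.1 line, which has another background (S32/Col), with 2 mock and 2 estriol arrays. ER8 is a vector that expresses its gene when an estrogen is given, so every group, the mock ones included, carries a Dof transgene. SUC2p::GFP-GUS is a reporter driven by the SUC2 promoter, which is active in the companion cells of the phloem. Whether each line is a single transformant, and how far ER8 is expressed without estrogen, is not given in the sources used here. Uninduced lines are the baseline on which each induction is measured, and this comparison asks which transcripts already differ between them.

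Dof proteins are plant transcription factors with a single zinc finger that binds DNA, and PEAR2 and Dof2.2 belong to the members expressed in the phloem, the tissue that carries sugars. PEAR proteins are known from Arabidopsis roots as mobile factors that promote cell division around the early phloem. UDP-glycosyltransferases, the family with the most differences among the named families below, attach sugars to small molecules such as flavonoids, phenolic acids and hormones.

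Levels are log2 signals after quantile normalization of all 12 arrays together, and differences are Dof2.2 minus PEAR2 on that scale, so a difference of 1 is 2-fold. Errors behind ± are standard errors from limma, fitted once to all 12 arrays, and adjusted p-values are from that fit over 16548 genes. As deposited, the mock arrays had medians of 5.56 and 5.58 for Dof2.2 roots, against 6.57 and 6.55 for PEAR2 roots, and the median gene differed by -0.86. After normalization the median difference of all genes was 0.02. Any difference in how the lines were grown, scanned or processed cannot be told apart from the difference between lines. The Dof2.2 mock arrays correlated with each other at 0.988 and the PEAR2 mock arrays at 0.995 over all entries of the table, against 0.98 to 0.984 between the lines. A median gene differed by 0.21 between the 2 Dof2.2 arrays and by 0.15 between the 2 PEAR2 arrays. Genes of root hairs, whose presence checks that roots were sampled, were clearly detected: EXPA18 stood at 10.84 and 10.92 in Dof2.2 roots, against 10.69 and 10.71 in PEAR2 roots. They cannot show that other tissue was absent. Both measured leaf photosynthesis genes lay above the median of all entries, 6.02. Mean levels in Dof2.2 and PEAR2 roots were 8.74 and 8.45 for RCA, and 6.47 and 6.53 for LHCB4.1. Whether other tissue was present was not tested. A group mean under 3.52, the lower quartile of all entries, is called dim here, since no background signal was given and such a level may be background alone. In bulk roots, fewer cells of a type and less RNA per cell cannot be told apart.

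The transgene loci came first, as a check of the labels. PEAR2 (AT5G02460) stood at 6.18 and 6.51 in Dof2.2 roots, against 7.48 and 7.38 in PEAR2 roots, and at 6.43 and 5.72 in uninduced Dof1.1 roots. All the other mock arrays lay below both PEAR2 arrays, so the PEAR2 line had the highest PEAR2 signal before induction. The difference was -1.09 ± 0.21, 2.12-fold lower in Dof2.2 roots, with adjusted p = 0.0222 (limma). It missed the threshold without either PEAR2 mock array, without Dof2.2 mock array 1 and on the 4 arrays alone, with adjusted p-values up to 0.138. With estriol in both lines, the difference widened to -5.4 (adjusted p = 1.889e-06).

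DOF2.2 (AT2G28810) did not show such a gap. Its levels were 5.86 and 6.34 in Dof2.2 roots, against 5.92 and 6.44 in PEAR2 roots, and the groups overlapped. The difference was -0.09 ± 0.26 (adjusted p = 0.877). With estriol in both lines it was 0.75 ± 0.26 and did not pass the threshold (adjusted p = 0.0766, limma). Mean levels of DOF2.2 with estriol were 9.09 in Dof2.2 roots, 8.34 in PEAR2 roots and 8.97 in Dof1.1 roots. The DOF2.2 signal thus did not set its own line apart past the threshold, with or without estriol. The probes of DOF2.2 and PEAR2 are taken to read the native gene and the transgene together, and these were not separated here.

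Of 36 listed Dof genes, 14 were measured, of which 1 was higher in Dof2.2 roots, 2 were lower and 11 did not pass the threshold. Among all 16548 genes 6.3% passed, 2.92% higher and 3.38% lower. The median of the 14 was -0.1, against 0.02 for all genes tested. CDF4, a cycling Dof factor, had levels of 4.76 and 4.24 in Dof2.2 roots and 5.67 and 5.43 in PEAR2 roots, a difference of -1.05 ± 0.2 (adjusted p = 0.0199). DOF1.3 went the other way, with 4.67 and 4.2 in Dof2.2 roots against 3.55 and 3.47 in PEAR2 roots, where it was dim on average, and a difference of 0.93 ± 0.23 (adjusted p = 0.0421). With estriol DOF1.3 was the lower in Dof2.2 roots, by a difference of -1.08 (adjusted p = 0.0114). Its call between uninduced lines was lost under 75th percentile centring, on the 4 arrays alone, with the replicate number as a block (adjusted p = 0.0528), and without Dof2.2 mock array 1 or either PEAR2 mock array (adjusted p up to 0.191). Among members that did not pass, DOF1.4 had 6.98 and 6.93 in Dof2.2 roots and 6.54 and 6.32 in PEAR2 roots (0.53 ± 0.16, adjusted p = 0.0765). DOF3.5 had 4.35 and 4.61 in Dof2.2 roots and 5.02 and 4.77 in PEAR2 roots (-0.42 ± 0.24, adjusted p = 0.311). The brightest member, DOF2.1, had 9.29 and 9.65 in Dof2.2 roots and 9.68 and 9.77 in PEAR2 roots (-0.25 ± 0.18, adjusted p = 0.409). DOF1.2, DOF1.5, DOF1.6, DOF1.8, DOF4.6, DOF5.8 and CDF5 had differences from -0.2 (DOF1.2) to 0.24 (DOF1.5). Without either PEAR2 mock array no Dof gene was called lower, and without either Dof2.2 mock array 1 was, where the full set of arrays gave 2.

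**Figure D1:**
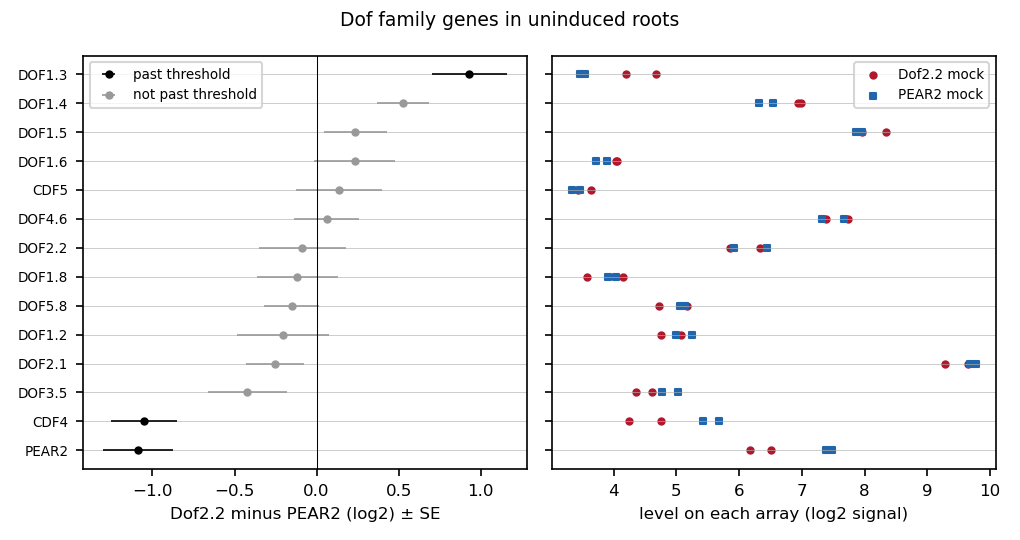
Dof family genes in uninduced roots, 14 genes sorted by difference. The left panel plots Dof2.2 minus PEAR2 on the log2 scale with its standard error, black where the adjusted p was under 0.05, and the right panel plots the log2 signal of each of the 2 Dof2.2 and 2 PEAR2 mock arrays. PEAR2 and CDF4 lie at the bottom with PEAR2 arrays above Dof2.2 arrays, and DOF1.3 at the top with the reverse.

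Across all genes, 483 were higher and 560 lower in Dof2.2 roots, of which 150 and 253 differed at least 2-fold. The calls rest on the variance shared over all 12 arrays and on both arrays of each group. Fitted on the 4 arrays alone, with fewer arrays to estimate the spread, 3 genes were higher and 14 lower. The count of 1043 became 25 without PEAR2 mock array 1 and 99 without PEAR2 mock array 2, and 374 and 523 without Dof2.2 mock arrays 1 and 2. Centring arrays on the median in place of quantile normalization, a setting chosen after the data were seen, gave 1443 higher and 658 lower, with a median difference of all genes of 0.13. The number of genes at an unadjusted p under 0.05 was 4119, and the 2 Dof2.2 arrays lay above both PEAR2 arrays in 31.2% of all genes and below both in 26.9%. All 483 higher and 560 lower genes called were without overlap, so a lack of overlap adds nothing to a call. Of the genes called, the brighter group was dim in 122 of those higher and 119 of those lower in Dof2.2 roots. The share of all genes with a dim brighter group was not computed, so these counts have no background beside them.

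**Figure D2:**
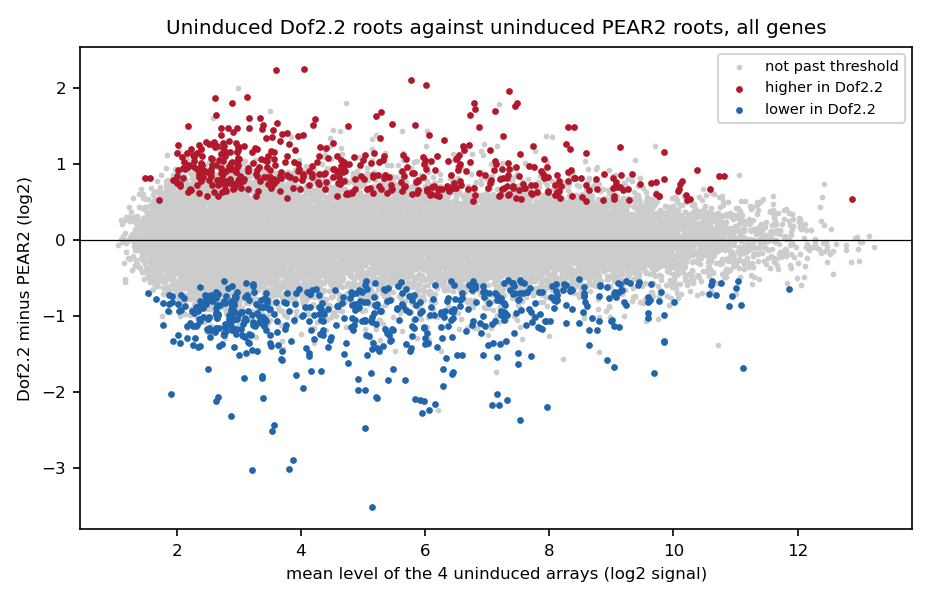
Difference between uninduced Dof2.2 and PEAR2 roots (log2, vertical axis) against the mean log2 signal of the 4 arrays (horizontal axis), 1 point per gene for 16548 genes. The 483 genes called higher are red, the 560 called lower are blue, and both lie over the whole range of levels; the lowest point is EXLA3 at -3.51.

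Of 89 genes chosen for description by a fixed rule, 74 passed the threshold. Of these, 58 remained to be tested without the dimmest genes and 16, UGT78D1 among them, were left out there. UGT78D2, AT3G28580 and AT2G12200, all lower in Dof2.2 roots, passed in each alternative run on this comparison, the values as deposited and the 2-fold minimum not counted. AT3G16530, also lower, passed in those too, apart from the one without the dimmest genes, where it was not tested. Without PEAR2 mock array 1, 65 of the 74 missed the threshold, and without PEAR2 mock array 2, 56 did, while every difference kept its sign. For genes known here by locus only, no product name was used, so no role is given.

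Among genes lower in Dof2.2 roots, the largest difference was that of EXLA3, an expansin-like gene of a family of cell wall proteins. EXLA3 stood at 3.26 and 3.54 in Dof2.2 roots, against 7.48 and 6.34 in PEAR2 roots. Uninduced Dof1.1 roots had 6.82 and 6.24, beside the PEAR2 arrays. The difference of -3.51 ± 0.48 (11.4-fold, adjusted p = 0.00627) has a dim Dof2.2 group, so its size is not exact. AT3G28580 had 3.76 and 3.83 in Dof2.2 roots, against 6.44 and 6.08 in PEAR2 roots and 6.2 and 6.3 in Dof1.1 roots. The Dof2.2 arrays thus stood apart from both other lines for this gene, with a difference from PEAR2 of -2.47 ± 0.16 (5.52-fold, adjusted p = 0.000389). AT3G16530 had 2.3 and 2.55 in Dof2.2 roots against 5.43 and 5.21 in PEAR2 roots (-2.9 ± 0.25, adjusted p = 0.00124), with 4.2 and 3.47 in Dof1.1 roots. AT2G12200 had 2.21 and 2.36 in Dof2.2 roots against 4.57 and 5.01 in PEAR2 roots (-2.51 ± 0.2, adjusted p = 0.000875), with 3.09 and 3.11 in Dof1.1 roots. For these 2 genes the Dof1.1 arrays lay between the other lines, and the Dof2.2 group was dim.

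AT1G30730 had 2.61 and 2.01 in Dof2.2 roots, against 5.66 and 4.97 in PEAR2 roots (-3.01 ± 0.27, adjusted p = 0.00124). AT2G41730 had 1.37 and 2.04 in Dof2.2 roots, against 5.35 and 4.12 in PEAR2 roots (-3.02 ± 0.48, adjusted p = 0.0109). Both were dim in Dof2.2 roots. AT5G43420 had 4.64 and 5.21 in Dof2.2 roots, against 7.02 and 7.08 in PEAR2 roots (-2.12 ± 0.2, adjusted p = 0.00188). AT5G62900 had 6.57 and 7.15 in Dof2.2 roots, against 9.04 and 9.09 in PEAR2 roots (-2.2 ± 0.33, adjusted p = 0.00914). The other genes among the 15 lowest with a bright PEAR2 group were AT1G78850, AT3G29000, AT1G72920, AT4G12500, AT2G18193, AT3G09020, AT3G18250, AT5G66790 and AT1G14480, at -2.28 (AT1G78850) to -2.07 (AT1G14480), with psbT and UGT78D2 described below. The Dof2.2 arrays of AT4G12500 were 6.95 and 5.04 and those of AT3G29000 4.25 and 5.65, a spread of more than 1 within a group whose difference from PEAR2 was about 2.

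Genes higher in Dof2.2 roots reached smaller differences. AT3G11385 had 7.11 and 6.94 in Dof2.2 roots, against 4.99 and 5.0 in PEAR2 roots (2.03 ± 0.25, 4.09-fold, adjusted p = 0.00494), with 5.34 and 6.14 in Dof1.1 roots. AT1G73780 had 8.25 and 8.41 in Dof2.2 roots, against 6.35 and 6.41 in PEAR2 roots (1.95 ± 0.22, adjusted p = 0.00334), with 7.57 and 8.29 in Dof1.1 roots. In both genes the 2 Dof2.2 arrays lay close together, as did the 2 PEAR2 arrays, while the Dof1.1 arrays were further apart. Both passed on the 4 arrays alone (adjusted p = 0.0429), but not without PEAR2 mock array 1 (0.0563 and 0.0501). The locus AT4G37220 had 8.26 and 8.4 in Dof2.2 roots, against 6.36 and 6.78 in PEAR2 roots and 6.65 and 6.41 in Dof1.1 roots (1.76 ± 0.25, adjusted p = 0.00748), so here the Dof2.2 line was the one apart. AT1G32950 had 8.04 and 7.9 in Dof2.2 roots, against 6.44 and 6.12 in PEAR2 roots (1.69 ± 0.26, adjusted p = 0.00993). AT5G23411 had 5.95 and 6.52 in Dof2.2 roots, against 4.47 and 4.96 in PEAR2 roots and 6.02 and 6.23 in Dof1.1 roots (1.52 ± 0.24, adjusted p = 0.0112); here the PEAR2 line was apart. AT2G13126 and AT2G25510, dim in PEAR2 roots, had the highest differences of all that also held with estriol, at 2.25 ± 0.33 and 2.23 ± 0.35. Further genes of the 15 highest with a bright Dof2.2 group were AT4G11393, AT1G29020, AT3G48346, AT3G32030, AT5G22555, AT3G46370, AT2G47870 and AT1G30990, at 2.1 (AT4G11393) to 1.49 (AT1G30990). The Dof2.2 arrays of AT4G11393 were 7.58 and 6.07, those of AT3G46370 6.58 and 5.47, and those of AT3G48346 7.12 and 8.21. Each spread by more than 1, and none of these genes passed with estriol, at -0.34, -0.23 and 1.07. AT5G22555 passed narrowly (adjusted p = 0.0497, limma). Its call was lost under 75th percentile centring, over all rows and on the 4 arrays alone. The serine carboxypeptidase-like gene scpl16 had 7.75 and 7.49 in Dof2.2 roots, against 6.18 and 6.08 in PEAR2 roots (1.49 ± 0.16, adjusted p = 0.00334).

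**Figure D3:**
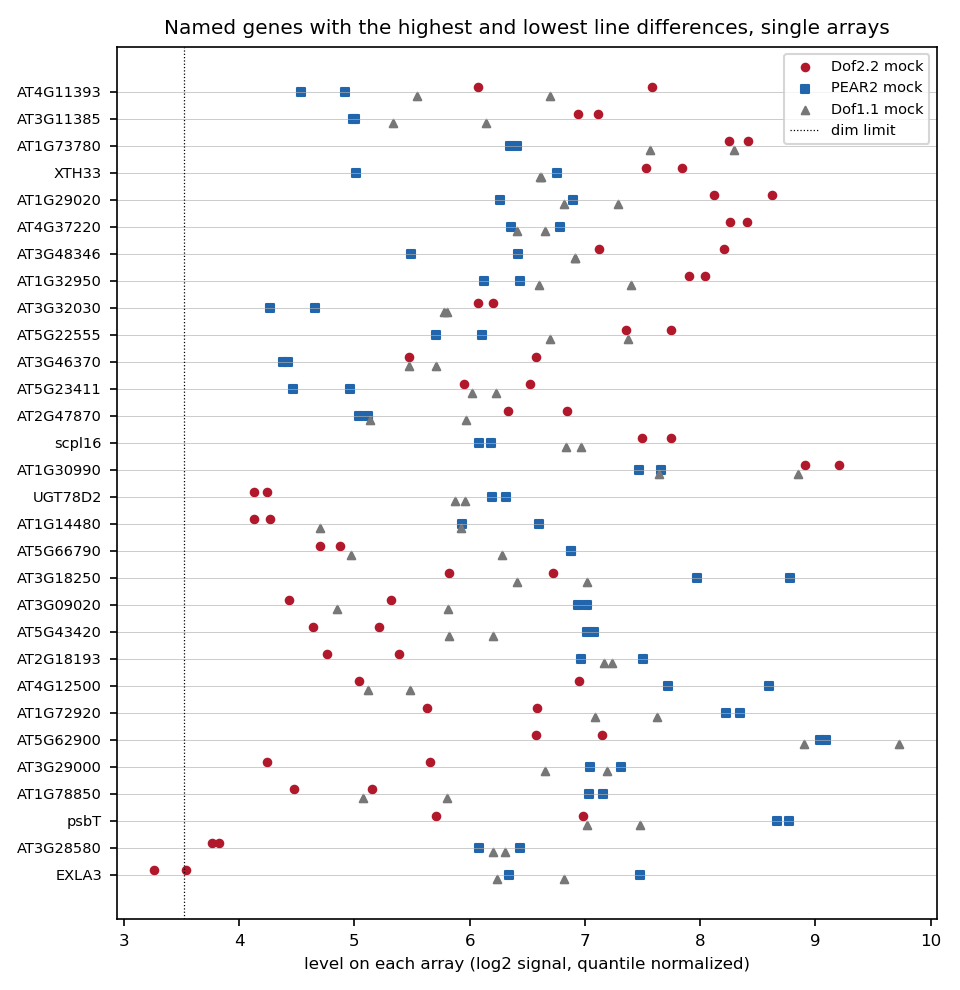
Log2 signal on single mock arrays (horizontal axis) for the 15 genes with the highest and 15 with the lowest differences whose brighter group lay above the median of all entries. Circles are Dof2.2, squares PEAR2 and triangles Dof1.1 arrays, with 2 of each per gene, and the dotted line is the dim limit of 3.52. Dof2.2 and PEAR2 arrays do not overlap in any of these genes, as the rule required, and the Dof1.1 arrays of EXLA3 and AT3G28580 sit beside the PEAR2 arrays.

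Glycosyltransferases made up the named family with the most calls. Of 51 measured UGT genes, 10 were lower in Dof2.2 roots, 3 were higher and 38 did not pass, so 25.5% were called, beside 6.3% of all genes. The family's median was -0.13 and 29 of its genes had negative differences, against a median of 0.02 for all genes. UGT genes were grouped by symbol after the files had been seen, and no test of the family was made. UGT78D2, which adds glucose to flavonoids at the 3-position, had 4.12 and 4.24 in Dof2.2 roots, against 6.19 and 6.31 in PEAR2 roots and 5.96 and 5.88 in Dof1.1 roots. The Dof2.2 arrays lay far below both other lines, and the difference from PEAR2 was -2.07 ± 0.14 (4.2-fold, adjusted p = 0.000389). It stood at -2.36 with estriol (adjusted p = 1.376e-05).

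Another 9 UGT genes were lower in Dof2.2 roots. UGT72E2, which glucosylates monolignols, the building blocks of lignin, had 4.12 and 4.73 in Dof2.2 roots, against 5.79 and 5.93 in PEAR2 roots (-1.43 ± 0.23, adjusted p = 0.0114). UGT84A3, which glucosylates hydroxycinnamic acids, had 4.49 and 5.1 in Dof2.2 roots, against 6.16 and 6.06 in PEAR2 roots (-1.31 ± 0.2, adjusted p = 0.00928). UGT74F1, which glucosylates salicylic acid, had 4.55 and 4.49 in Dof2.2 roots, against 5.84 and 6.04 in PEAR2 roots (-1.42 ± 0.16, adjusted p = 0.00343). In the order given, the differences of these genes with estriol were -1.9, -2.54 and -1.38. UGT71B5 was lower by -1.52 ± 0.24, with 4.35 and 4.26 in Dof2.2 roots and 6.15 and 5.5 in PEAR2 roots, and stood at -0.25 with estriol (adjusted p = 0.504). Also lower were UGT73B3 (-1.22), UGT71D1 (-1.15), UGT73B5 (-1.1), UGT78D3 (-0.88) and UGT73B1 (-0.51).

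Other UGT genes were higher in Dof2.2 roots or did not pass. UGT78D1, which adds rhamnose to flavonols at the same position, was higher in Dof2.2 roots, with 3.79 and 4.42 against 2.59 and 2.71 in PEAR2 roots (1.46 ± 0.23, adjusted p = 0.0107), where it was dim. UGT71C1 was higher, with 7.23 and 7.24 in Dof2.2 roots against 6.2 and 6.23 in PEAR2 roots (1.02 ± 0.16, adjusted p = 0.0117), and had no such gap with estriol, at -0.11 (adjusted p = 0.691). UGT76E12 was the third, at 0.67 ± 0.15 (adjusted p = 0.0307). DFR, an enzyme of anthocyanin synthesis and the other measured member of the flavonoid list, had 3.33 and 3.56 in Dof2.2 roots and 3.13 and 3.1 in PEAR2 roots (0.33 ± 0.19, adjusted p = 0.31). UGT72E1, a monolignol glycosyltransferase like UGT72E2, had 9.29 and 8.13 in Dof2.2 roots and 8.69 and 9.09 in PEAR2 roots (-0.18 ± 0.36, adjusted p = 0.804). It differed by -3.24 with estriol (adjusted p = 0.000591). The count of lower UGT genes was 5 without Dof2.2 mock array 1, 2 and 3 without PEAR2 mock arrays 1 and 2, and 1, UGT78D2, on the 4 arrays alone.

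**Figure D4:**
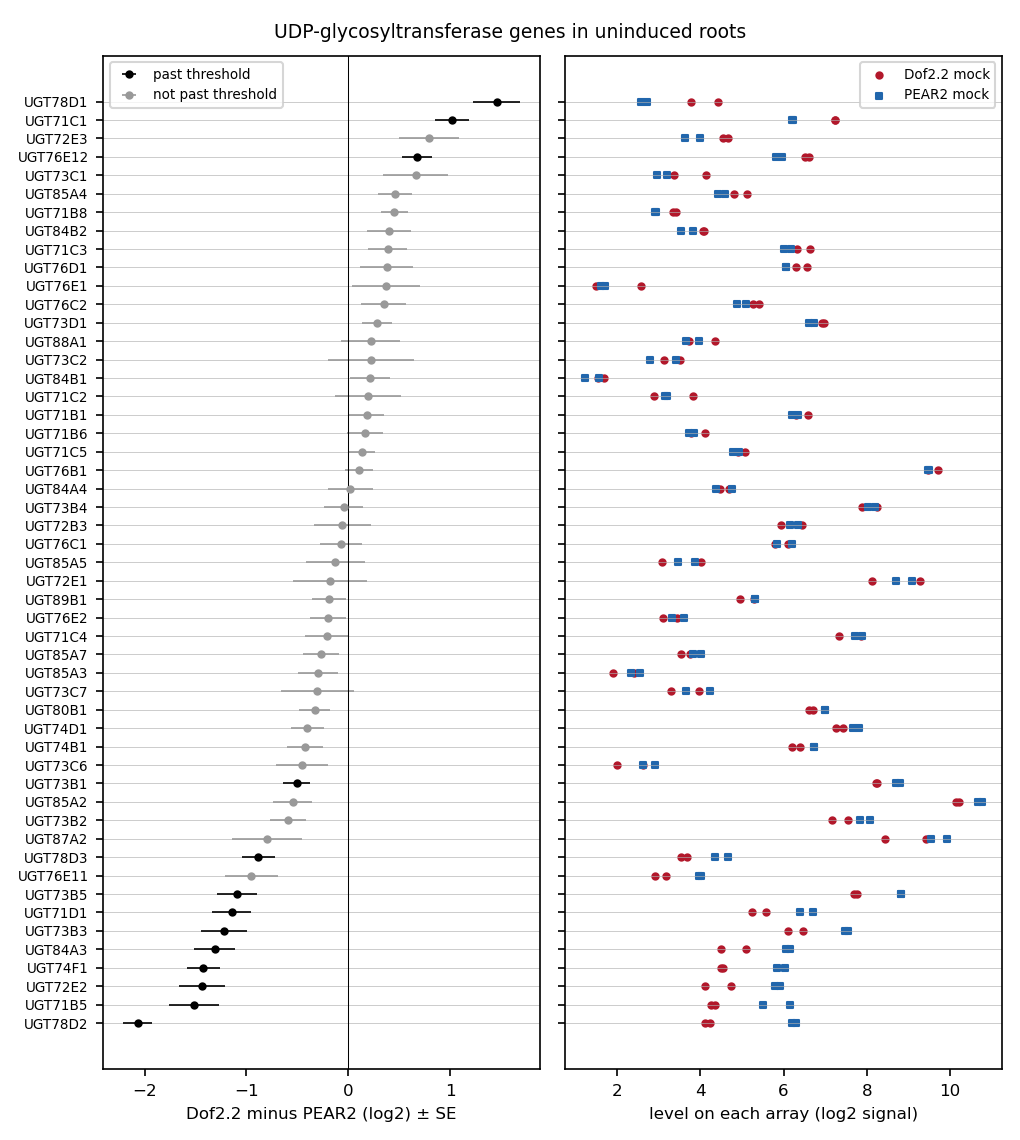
UDP-glycosyltransferase genes in uninduced roots, 51 genes sorted by difference. The left panel plots Dof2.2 minus PEAR2 (log2) with its standard error, black where the adjusted p was under 0.05, and the right panel plots the log2 signal of each of the 2 Dof2.2 and 2 PEAR2 mock arrays. Black points gather at the lower end, from UGT78D2 at -2.07 to UGT73B1 at -0.51, with 3 at the upper end, up to UGT78D1 at 1.46.

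Cell wall genes differed in both directions. Of 22 expansin genes, EXLA3 was lower, EXPA8 was higher and 20 did not pass, so 9.09% were called, beside 6.3% of all genes, and the family median was 0.16. EXPA8, an alpha-expansin, which loosens cell walls, had 7.54 and 7.87 in Dof2.2 roots, against 6.68 and 6.87 in PEAR2 roots (0.93 ± 0.19, adjusted p = 0.0252). Dof1.1 roots had 7.71 and 7.57, close to Dof2.2 roots. XTH33, an enzyme that cuts and rejoins xyloglucan, had 7.84 and 7.53 in Dof2.2 roots, against 5.01 and 6.76 in PEAR2 roots (1.8 ± 0.46, adjusted p = 0.0494). Its PEAR2 arrays lay far apart, and it missed the threshold with array weights, over all rows, on the 4 arrays alone, with the replicate number as a block (adjusted p = 0.0602) and without PEAR2 mock array 1 or either Dof2.2 mock array, at adjusted p up to 0.217. It was the 1 gene called of 10 measured XTH and EXGT genes, and with estriol it stood at 2.36 (adjusted p = 0.00827). Of 23 TBL genes, a family linked to acetylation of wall polysaccharides, TBL15, TBL37 and TBL38 were higher and TBL36 was lower, so 17.4% were called, beside 6.3% of all genes. TBL37 had 8.24 and 8.21 in Dof2.2 roots, against 7.1 and 7.45 in PEAR2 roots (0.95 ± 0.2, adjusted p = 0.0262), and TBL36 had 8.7 and 8.69 in Dof2.2 roots, against 9.49 and 9.4 in PEAR2 roots (-0.75 ± 0.14, adjusted p = 0.0203). None of the 3 pectin methylesterases known by symbol passed.

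Regulators of vascular tissue included 2 calls among 6 measured of 21 listed, where 6.3% of all genes were called. CLE44 encodes the peptide TDIF, which the phloem sends to the cambium. CLE44 had 6.92 and 7.05 in Dof2.2 roots, against 6.2 and 5.93 in PEAR2 roots (0.92 ± 0.19, adjusted p = 0.0243). MOL1, a receptor kinase known to restrain the cambium, had 4.26 and 4.26 in Dof2.2 roots, against 5.05 and 5.11 in PEAR2 roots (-0.82 ± 0.18, adjusted p = 0.0283). Both missed the threshold without any single one of the 4 mock arrays, with adjusted p up to 0.158 for CLE44 and 0.155 for MOL1. CLE41, which encodes the same peptide as CLE44, had 7.47 and 8.11 in Dof2.2 roots and 8.16 and 8.1 in PEAR2 roots (-0.34 ± 0.23, adjusted p = 0.396). Of 16 CLE genes, CLE44 was the 1 that passed (6.25%, near the share of all genes), and the other listed vascular genes PHV, LHW and CLE42 stood at -0.05, 0.2 and 0.56.

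None of 9 measured phloem genes of 36 listed passed, with a median of 0.2 and a range of -0.2 (GTR1) to 1.78 (SWEET11). SWEET11, a sucrose exporter of phloem loading, had 7.04 and 9.12 in Dof2.2 roots, against 6.44 and 6.16 in PEAR2 roots. The Dof2.2 arrays differed from each other by more than 2, and the difference of 1.78 ± 0.54 had adjusted p = 0.0783. CLE25 had 6.56 and 6.38 in Dof2.2 roots, against 5.99 and 6.02 in PEAR2 roots (0.47 ± 0.15, adjusted p = 0.0834). OPS, a polar protein of the protophloem, had 4.81 and 4.84 in Dof2.2 roots and 4.56 and 4.69 in PEAR2 roots (0.2 ± 0.15, adjusted p = 0.441). None of 14 SWEET sugar transporter genes passed, although 11 had positive differences and the median was 0.43. SWEET3 came closest, at 1.34 ± 0.36 (adjusted p = 0.0564).

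Of 85 LCR, SCRL and PDF genes, which encode cysteine-rich secreted peptides, 3 were higher and 2 were lower, or 5.88% called, near the 6.3% of all genes. In this family 66 genes were dim in both lines. LCR68, one of the few bright members, had 11.19 and 11.12 in Dof2.2 roots, against 10.33 and 10.31 in PEAR2 roots (0.83 ± 0.13, adjusted p = 0.0103). The plant defensin gene PDF1.3 had 4.7 and 3.42 in Dof2.2 roots, against 2.17 and 2.21 in PEAR2 roots, where it was dim (1.87 ± 0.43, adjusted p = 0.036). Of 18 RALF-like genes, whose peptides act on cell expansion through receptor kinases, RALFL33 was lower and RALFL20 was higher (11.1% called, against 6.3% of all genes). RALFL33 had 5.14 and 4.62 in Dof2.2 roots, against 6.02 and 6.08 in PEAR2 roots (-1.17 ± 0.2, adjusted p = 0.0135). RALFL20, LCR55 and LCR63 were dim in both lines.

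Enzymes of detoxification and of glucosides differed singly. GSTU25, a tau-class glutathione transferase, had 8.16 and 8.12 in Dof2.2 roots, against 9.82 and 9.61 in PEAR2 roots (-1.57 ± 0.19, adjusted p = 0.00494). GSTU28 of the same class was higher, with 8.48 and 8.22 in Dof2.2 roots against 6.88 and 7.34 in PEAR2 roots (1.23 ± 0.24, adjusted p = 0.0206). With GSTU21, which was dim in both lines, 2 of 14 glutathione transferase genes were higher and 1 was lower, where 2.92% of all genes were higher and 3.38% lower. BGLU28, a beta-glucosidase known for its rise under sulfur deficiency, had 3.86 and 5.1 in Dof2.2 roots, against 6.49 and 6.16 in PEAR2 roots and 7.77 and 7.3 in Dof1.1 roots (-1.84 ± 0.39, adjusted p = 0.0278). Of 22 beta-glucosidase genes, BGLU28 and BGLU33 were lower and none was higher, and BGLU33 was dim in both lines. SDI2, the other measured gene of the sulfur list, had 6.17 and 6.56 in Dof2.2 roots and 6.29 and 6.01 in PEAR2 roots (0.21 ± 0.19, adjusted p = 0.531). Of 26 cytochrome P450 genes, 1 was higher and 2 were lower (11.5% called), with CYP79C2 and CYP71B20 dim in both lines and CYP71B16 dim in PEAR2 roots. Of 32 serine carboxypeptidase-like genes, 2 were higher and 1 was lower (9.38% called). The beta-glucosidases had 9.09% called, and all genes 6.3%.

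Jacalin-related lectins, sugar-binding proteins, had 1 call among 5 measured, where 6.3% of all genes were called. Differences of the 5 genes were negative in 4 and positive in 1, at 0.2, and the 3 lowest are given here. JAL33 had 6.33 and 6.71 in Dof2.2 roots, against 7.97 and 7.8 in PEAR2 roots (-1.37 ± 0.32, adjusted p = 0.0383). JAL31 had 6.1 and 6.08 in Dof2.2 roots, against 7.42 and 7.08 in PEAR2 roots (-1.16 ± 0.34, adjusted p = 0.0712), and JAL22 had 8.4 and 9.65 in Dof2.2 roots, against 10.18 and 10.0 in PEAR2 roots (-1.06 ± 0.42, adjusted p = 0.154). With estriol the 3 genes stood at -2.04, -2.36 and -2.0, each past the threshold. HHO3, a GARP-type transcription factor known from nitrate responses, had 10.53 and 10.44 in Dof2.2 roots, against 11.06 and 11.04 in PEAR2 roots (-0.56 ± 0.14, adjusted p = 0.0474). It was 1 of 2 measured nitrogen genes, and its call was lost under 75th percentile and median centring and without any single mock array of the lines, at adjusted p up to 0.217.

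The general shift of organelle genes depended on the scaling. Of 63 plastid-encoded genes, 4 were lower, none was higher, and 53 had negative differences, with a median of -0.22. The share called was 6.35%, near the 6.3% of all genes. All 12 mitochondrion-encoded genes had negative differences, with 1 called and a median of -0.18. Under centring on the 75th percentile, 33 plastid and 4 mitochondrial genes were negative (medians of -0.0025 and 0.12), and under median centring 25 and 2 were (0.12 and 0.24). The genes rpl32 and psbT stayed past the threshold under either centring. The ribosomal protein gene rpl32 had 8.88 and 8.73 in Dof2.2 roots, against 10.43 and 10.68 in PEAR2 roots and 9.5 and 9.25 in Dof1.1 roots (-1.75 ± 0.2, adjusted p = 0.00381). The photosystem II gene psbT had 5.71 and 6.99 in Dof2.2 roots, against 8.77 and 8.67 in PEAR2 roots (-2.37 ± 0.4, adjusted p = 0.0132). The other lower plastid genes were cemA (-0.87 ± 0.19), a protein of the chloroplast envelope, and psbI (-0.65 ± 0.14), of photosystem II, both of which lost the call under either centring. The mitochondrial gene cox2, a subunit of cytochrome c oxidase, stood at -0.86 ± 0.16 (adjusted p = 0.0176) and lost it under median centring. Without PEAR2 mock array 1 or 2, 1 plastid gene was called, and without Dof2.2 mock array 1, 2 were, against 13 with trended robust moderation.

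Several lists had measured members of which none passed. The 7 measured root hair genes, out of 29 listed, had differences of -0.15 (EXT9) to 0.51 (HRGP1). Their mean level was 9.74 and 9.69 on the Dof2.2 arrays, against 9.64 and 9.48 on the PEAR2 arrays. Both measured leaf photosynthesis genes were nuclear: RCA had 8.81 and 8.68 in Dof2.2 roots and 8.34 and 8.56 in PEAR2 roots (0.3 ± 0.19), and LHCB4.1 had 6.5 and 6.44 in Dof2.2 roots and 6.59 and 6.46 in PEAR2 roots (-0.05 ± 0.26). Among 8 auxin and cytokinin genes, the type-A response regulator RR16 had 6.05 and 6.4 in Dof2.2 roots, against 5.05 and 5.11 in PEAR2 roots (1.14 ± 0.37, adjusted p = 0.0917). Of 6 water and salt stress genes, COR15B at -0.91 ± 0.24 (adjusted p = 0.0527) and KIN1 at -0.92 ± 0.27 (adjusted p = 0.0679) were closest to the threshold. The clock gene GI had 9.33 and 9.3 in Dof2.2 roots and 9.56 and 9.64 in PEAR2 roots (-0.28 ± 0.13, adjusted p = 0.202). None of 6 iron deficiency, 3 glucosinolate and 3 jasmonate genes passed, and 0 genes of the lists of phosphate starvation and of root cap and endodermis were measured.

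The induced arrays of the same lines, which share no array with the mock ones, show whether a line difference was also present with estriol. They are not fully separate. Line and processing are confounded in both comparisons, and the median gene as deposited differed by -0.86 without estriol and -0.83 with it. A line difference present in both therefore cannot be told apart from a difference in processing. The deviations of equally numbered mock and estriol arrays correlated at 0.146 among Dof2.2 arrays and 0.148 among PEAR2 arrays. Both comparisons also use the same standard error for a gene, taken from the common fit. Genes called on the mock arrays are thus partly chosen for a small error, which makes a call with estriol easier too. How far this raises the shares also called with estriol above those of all genes was not tested. Of the 483 genes higher in uninduced Dof2.2 roots, 303 (62.7%) were also called higher with estriol, where 9.89% of all genes were, and 451 (93.4%) had the same sign. Of the 560 lower genes, 332 (59.3%) were also called lower, against 8.42% of all genes, and 526 (93.9%) had the same sign. An opposite call was made for 8 and 3 genes. The share of all genes with the same sign in both comparisons was not computed, so the same-sign shares have no background beside them. The median difference with estriol was 0.69 for the higher genes, against 0.85 without it, and -0.7 for the lower genes, against -0.96 without it. Both sets were chosen on the mock arrays, so the medians without estriol hold that choice. In all, 3029 genes differed with estriol, a count that became 1890 and 1767 without Dof2.2 estriol arrays 1 and 2, and 1277 and 1020 without PEAR2 estriol arrays 1 and 2.

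**Figure D5:**
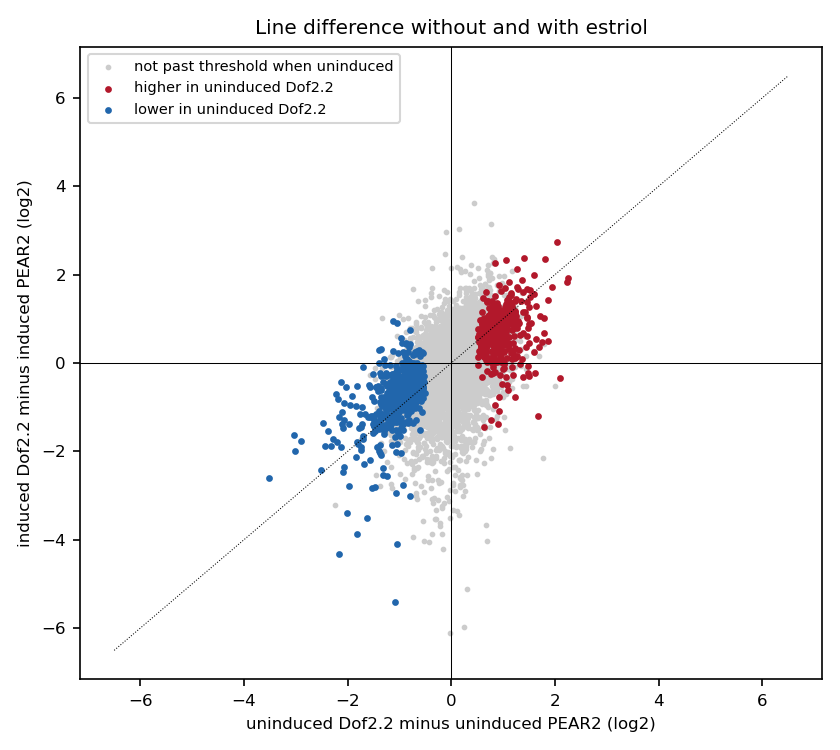
Line difference with estriol (induced Dof2.2 minus induced PEAR2, log2, vertical axis) against the line difference without it (uninduced Dof2.2 minus uninduced PEAR2, log2, horizontal axis) for 16548 genes. Red points were called higher and blue points lower in uninduced Dof2.2 roots, the dotted line marks equal differences, and the far points at the bottom include PEAR2 at -5.4. Most red points lie above 0 and most blue points below 0 on the vertical axis.

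The line difference itself changed with estriol in 198 genes (1.2% of those tested), of which 41 moved up and 157 down. The count was 64 and 84 without PEAR2 mock arrays 1 and 2, 101 and 76 without PEAR2 estriol arrays 1 and 2, and 132 without Dof2.2 mock array 2. With equally numbered mock and estriol arrays of a line as a block, an alternative chosen after the data were seen, it was 126. EXPA8 and DOF1.3, higher in uninduced Dof2.2 roots, were lower in the induced arrays. For EXPA8 the change was -1.7 ± 0.27 (adjusted p = 0.0149), and for DOF1.3 it was -2.01 ± 0.32 (adjusted p = 0.0164, or 0.07 with that block). AT3G32030, with 6.07 and 6.2 in uninduced Dof2.2 roots against 4.26 and 4.65 in uninduced PEAR2 roots, turned likewise, with a line difference of -1.2 with estriol, against 1.68 without (change of -2.87 ± 0.38, adjusted p = 0.00679). Among the 5 largest changes were those of AT2G19802, AT3G30280, AT3G42830 and AT3G46570, which did not pass between uninduced lines and lay at -3.66 (AT3G46570) to -6.1 (AT3G30280) between induced ones.

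Genes that change with estriol in the Dof1.1 line were identified on arrays that enter neither group, though they enter the shared estimate of the spread. No line without a Dof transgene was given estriol, so effects of Dof1.1 and of estriol cannot be told apart. Of 3340 genes that rose with estriol in the Dof1.1 line, 2.72% were higher and 3.05% lower in uninduced Dof2.2 roots. Of 2604 that fell, 3.57% were higher and 5.3% lower. Of the 10604 that did neither, 2.82% were higher and 3.02% lower, and the medians of the 3 classes were 0.03, 0.01 and 0.02. No test of these shares was made.

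Called genes were spread over the genome. On chromosomes 1 to 5 the share called ran from 6.02% (chromosome 3) to 6.5% (chromosome 5). Among genes tested in genome order, 41 neighbouring pairs were called with the same sign and there was 1 run of 3, on chromosome 2. It held UGT71C1 (AT2G29750), AT2G29780 and AT2G29790, all higher in Dof2.2 roots, at 1.02, 0.68 and 0.98, and the last pair was dim in both lines. Of all genes, 2.92% were called higher and 3.38% lower. How many pairs and runs such shares give without any clustering was not computed, so these counts do not show clusters.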

How the data were processed

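Root RNA of 3 Arabidopsis lines was measured on 12 one-colour arrays, in 6 groups of 2 taken from the titles. The deposited table holds log2 signals with 2 decimals, made by RMA per the submitters' processing notes, with no version given. Array quantiles differed more between lines than within them, so the lines looked normalized separately, and all 12 arrays were quantile normalized together over the table's 28583 rows. Of these, 16722 named exactly 1 gene, 16574 of them matched to TAIR10.1 by Entrez identifier and 140 by name, and for 148 genes with several rows the brightest was kept, leaving 16548 genes. Most are known by locus only, and many well studied genes are not among them.

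One limma 3.58.1 model of 6 group means (R 4.3.3; 6 residual and 3.98 prior degrees of freedom) gave two-sided p-values, with Benjamini-Hochberg adjustment across the genes of a contrast and a threshold of 0.05. No label or file gave a batch. Replicates share numbers, but no label ties equal numbers to a shared source, so the numbers were not used as pairs.

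The comparison, gene lists and rules were chosen with earlier results of these data known. Families by symbol were formed after the files were seen. Named were all measured Dof genes, the 15 highest and 15 lowest non-overlapping genes with a bright group, up to 4 called genes per list, the 5 highest and 5 lowest that kept their call with estriol, the 5 largest changes with estriol, and runs of neighbours; some genes that the rule picked are not reported here. Further values shown for list members complete each list. Tested on simulated data for this comparison with 16548 genes, the model recovered 6, 26, 40 and 47 of 50 genes changed 1.5-fold, 2-fold, 3-fold and 4-fold, with 6 false calls. The simulated arrays had independent normal noise and a constant shift per line, which quantile normalization removes. No gap that varies with signal level, and no other difference in processing, was simulated. The 6 false calls therefore do not bear on calls that such differences could give. Alternatives are listed at the end.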

Additional observations from a re-analysis of the deposited data

Results flagged for a closer look

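In 8 of the genes described, the difference between the lines was not the same with estriol as without it, by limma's test of that change. Among genes that differed between uninduced lines, the change (line difference with estriol minus that without) was -4.3167 ± 0.30 for PEAR2 (adjusted p = 0.000213), which is the gene induced in one of the lines. It was -2.874 ± 0.38 for AT3G32030 (adjusted p = 0.00679), -2.0088 ± 0.32 for DOF1.3 (0.0164) and -1.7029 ± 0.27 for EXPA8 (0.0149). Among genes that did not pass between uninduced lines, it was -6.2158 ± 0.28 for AT2G19802 (adjusted p = 1.249e-05), -6.0802 ± 0.46 for AT3G30280 (0.000295), -5.4281 ± 0.64 for AT3G42830 (0.00382) and -4.3248 ± 0.27 for AT3G46570 (0.00018). AT2G19802, AT3G30280 and AT3G42830 were dim in both uninduced lines, and AT3G46570 and DOF1.3 in uninduced PEAR2 roots. The size of the changes of these genes is therefore not exact. With equally numbered mock and estriol arrays of a line as a block, DOF1.3 (adjusted p = 0.07) and AT3G42830 (0.061) missed the threshold and the other 6 passed.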

How the results depend on the processing

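Each group had 2 arrays, whose number limits the precision, and dim signals are not shown to lie above background. The 1043 calls between the uninduced lines became 13252 as deposited, 1681 with 75th percentile centring, 2101 with median centring, 15 with quantile normalization of the 4 arrays only, 17 on only the 4 arrays, 1921 over all rows (28583 in place of 16548) and 403 at 2-fold or more; they ran from 25 to 523 without single replicates. They were 885 without the dimmest 0.25 of genes, 1257 with trended robust moderation, 1547 with array weights, 1103 with a replicate block and 1111 with the crossed replicate block, where the numbers of one line were exchanged. The replicate block took the call from 6 of the 74 called genes described (DOF1.3, XTH33, AT5G22555, AT3G18250, LCR63 and CYP71B16, at adjusted p of 0.0506 to 0.0606) and gave none of the other 15 a call. The 3029 calls with estriol became 12706 as deposited and 5482 over all rows, and 1020 to 1890 without single replicates. Replicate deviations correlated at -0.101 between the mock groups, and between mock and estriol arrays at 0.146 for Dof2.2, 0.148 for PEAR2 and 0.313 for Dof1.1. The 198 changes with estriol became 126 with a replicate block within each line, 350 over all rows and 64 to 268 without single replicates. Uninduced Dof2.2 minus Dof1.1 had 613 calls, or 7312 as deposited, 315 without the dimmest 0.25 of genes, 120 with array weights, 962 over all rows and 33 to 619 without single replicates. Uninduced PEAR2 minus Dof1.1 had 419 calls, or 4756 as deposited, 715 with 75th percentile centring, 775 over all rows and 0 to 69 without single replicates in limma, where 2196 to 3092 genes still had an unadjusted p under 0.05. The 5944 calls of the Dof1.1 induction became 6865 with a replicate block within each line and 10822 over all rows.

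As deposited, 43 UGT genes were lower and 1 higher, 60 plastid genes lower and 13 Dof genes lower. On only the 4 arrays, or with those 4 quantile normalized alone, 1 UGT gene was lower and 0 higher, and 0 plastid and 0 Dof genes were lower. Lower plastid genes were 2 with 75th percentile centring, 2 with median centring, 13 with trended robust moderation and 7 with array weights. Without single replicates, lower UGT genes numbered 2 to 9, higher ones 0 to 2, lower plastid genes 1 to 4 and lower Dof genes 0 to 1. A turned sign was counted only for described genes past the threshold in the main fit or in the alternative. By that count signs turned only in the values as deposited, where the median gene differed by -0.86. Those genes were DOF1.3 -0.105, DOF1.4 -0.45, DOF1.5 -0.64, DOF1.6 -0.84, CDF5 -0.9, DOF4.6 -0.835, CLE44 -0.085, EXPA8 -0.02, TBL38 -0.18 and AT2G29780 -0.245. Small differences that passed in neither fit could turn sign without being counted. Median centring, the crossed block, the block within each line, the symbol families and leaving out arrays in the other comparisons were chosen after seeing the data. Beyond the counts given, the cause of each move was not tested.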
